A study of Mus musculus with 4 samples.

Results

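The Ifit cluster and the Rsad2-Cmpk2 pair are 2 loci of interferon-induced antiviral genes, examined here for histone H4 acetylation called in mouse macrophages. Their members are the peaks of the 4 deposited lists that overlapped mm9 chromosome 19, 34600000 to 34740000 (Ifit2, Ifit3 and Ifit1), or chromosome 12, 27100000 to 27200000 (Rsad2 and Cmpk2). They numbered 103 of the 175801 peaks in all, 64 in the Ifit window and 39 in the Rsad2-Cmpk2 window. The loci were selected on the LPS-treated and untreated peak calls of these same libraries, so the calls are given as a description, with no test.

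Chromatin immunoprecipitation with an antibody against acetylated histone H4, followed by sequencing, was carried out on primary bone marrow-derived macrophages of C57BL/6 mice on day 7 of differentiation. The groups were HDAC3 -/- cells (HDAC3 KO) and HDAC3 +/- cells (called wt by the submitters) given lipopolysaccharide (LPS, a component of the Gram-negative outer membrane) at 100 ng/ml for 4 h, and untreated HDAC3 KO and wt cells. Each group had 1 library, so no spread between replicates exists, and every difference below is a difference between 2 libraries. The wt cells carry 1 disrupted Hdac3 allele, and how the alleles were disrupted is not given in the sources used here. Read depth per library is unknown. The lists held 45589 (LPS-treated HDAC3 KO), 39550 (LPS-treated wt), 41956 (untreated HDAC3 KO) and 48706 peaks (untreated wt), covering 50.4, 37.4, 36.4 and 35.4 Mb in that order.

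HDAC3 is a histone deacetylase that acts within nuclear corepressor complexes, and acetylated H4 is found at active promoters and enhancers. In macrophages LPS is sensed by TLR4, whose TRIF branch activates IRF3. Interferon beta made in turn acts back on the cells, and genes that respond to it often carry a DNA element called the interferon-stimulated response element (ISRE). Ifit genes and Rsad2 are textbook targets of that pathway. The Ifit proteins carry tetratricopeptide repeats. Ifit1 binds viral RNA whose cap lacks methylation and blocks its translation, Ifit2 also binds RNA and protects the mouse brain against several viruses, and IFIT3 is known in human cells to bind and stabilise IFIT1. Rsad2 encodes viperin, a radical SAM enzyme that turns CTP into a chain-terminating nucleotide, and Cmpk2 encodes a mitochondrial kinase of UMP and CMP.

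In RefSeq (GRCm38.p6) the genes follow each other on chromosome 19 as Ifit2, Ifit3, Ifit1bl1, Ifit3b, Ifit1bl2, the pseudogene Cnn2-ps and Ifit1. On chromosome 12 Rsad2 and Cmpk2 are direct neighbours. The promoters of Rsad2 (minus strand) and Cmpk2 (plus strand) face away from each other. All 5 members matched a gene, and 6 RefSeq promoters matched, 2 of them of Ifit2. Peaks are on mm9 and this annotation is on another build, so no peak was assigned to a gene, promoter or exon, and the RefSeq positions below cannot be set against peak positions.

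The 250 bases before the annotated starts of Ifit1, Ifit3 and Rsad2 are shown because they are the member promoters that hold the core letters of an ISRE, GAAA followed by any 2 bases and GAAA again, on either strand. Capitals mark those letters, which read TTTC, 2 bases and TTTC where the site lies on the other strand. The stretches are chr19:34640639-34640888 (plus strand) for Ifit1, chr19:34583279-34583528 (plus) for Ifit3 and chr12:26456453-26456702 (minus) for Rsad2, all on GRCm38.p6 and written 5′ to 3′.
Ifit1: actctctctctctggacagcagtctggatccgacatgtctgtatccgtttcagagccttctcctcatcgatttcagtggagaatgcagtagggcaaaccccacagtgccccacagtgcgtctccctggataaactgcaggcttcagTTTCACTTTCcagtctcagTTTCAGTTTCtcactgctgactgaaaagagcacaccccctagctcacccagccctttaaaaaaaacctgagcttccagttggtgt
Ifit3: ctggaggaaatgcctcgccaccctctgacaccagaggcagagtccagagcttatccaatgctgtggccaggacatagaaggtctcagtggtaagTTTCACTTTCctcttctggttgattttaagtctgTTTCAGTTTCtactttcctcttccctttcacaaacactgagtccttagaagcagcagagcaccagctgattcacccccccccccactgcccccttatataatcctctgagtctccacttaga
Rsad2: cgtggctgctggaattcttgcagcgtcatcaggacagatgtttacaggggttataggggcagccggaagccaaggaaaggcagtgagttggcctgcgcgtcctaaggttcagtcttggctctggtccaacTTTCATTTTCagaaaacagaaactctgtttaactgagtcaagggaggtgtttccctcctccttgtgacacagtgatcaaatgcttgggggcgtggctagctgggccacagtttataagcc

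Ifit1 held 2 such matches, whose first bases lay 104 and 85 bases before the start, and Ifit3 held 2, at 156 and 122 bases. Rsad2 held 1, at 120 bases. The Cmpk2 promoter and both Ifit2 promoters held none, which says only that these letters are not in those windows. Of all 32851 RefSeq promoters in the table, 978 (2.98%) held the letters in the same 250 bases. The letters TTCNNNGAA, a GAS element, which read the same on both strands, occurred in 1 of the 2 Ifit2 promoters (at 241 bases) and in 7.02% of all promoters. The NF-kB letters, GGG followed by any 2 bases and TTTCC, on either strand (1.41% of all promoters) and the TATA letters TATAAA on the gene's strand (7.59%) occurred in none of the 6. A match is a description of sequence and not of binding.

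Acetylation calls at both loci were far more extensive in the LPS-treated libraries of both genotypes. Peaks covered 31.4 kb of the 140-kb Ifit window in LPS-treated HDAC3 KO, 18.8 kb in LPS-treated wt, 3.99 kb in untreated HDAC3 KO cells and 7.11 kb in those of untreated wt. In the 100-kb Rsad2-Cmpk2 window they covered 23.8, 20.2, 2.17 and 3.76 kb in the same order. The order of the 4 libraries was thus the same at both loci, with HDAC3 KO longest with LPS and shortest without it, although scaling to total covered length put LPS-treated wt first in the Rsad2-Cmpk2 window. In the same order the Ifit window held 28, 18, 4 and 14 peaks, which ranks the libraries as covered length does. The Rsad2-Cmpk2 window held 14, 18, 2 and 5, so there the LPS-treated HDAC3 KO library had fewer but wider peaks than LPS-treated wt.

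**Figure D1:**
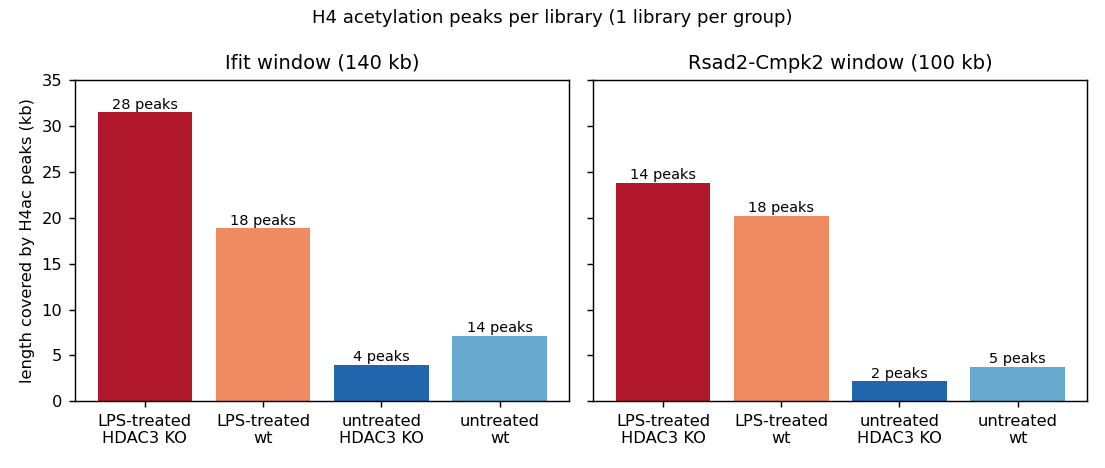
Length covered by H4 acetylation peaks (kb, vertical axis) in the Ifit window (left) and the Rsad2-Cmpk2 window (right) for the 4 libraries, 1 bar per library, with the number of peaks above each bar. Both LPS-treated libraries stand above both untreated libraries at each locus, at 18.8 to 31.4 kb against 3.99 to 7.11 kb in the Ifit window.

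In HDAC3 KO the LPS-treated library covered 27.5 kb more of the Ifit window than the untreated one, 7.88-fold as much. In wt the LPS-treated library covered 11.7 kb more than the untreated one (2.65-fold). The Rsad2-Cmpk2 differences were 21.6 kb (11.0-fold) in HDAC3 KO and 16.4 kb (5.36-fold) in wt. All 4 were past a size of at least 2-fold and 5 kb. Among 9051 windows of 140 kb tiled along the genome with a peak in any library, 7.71% were past that size upward in HDAC3 KO and 3.15% in wt. Among 11398 windows of 100 kb these shares were 6.49 and 2.75%. A difference at least as large as that of the Ifit window was found in 0.243% of windows in HDAC3 KO and 1.13% in wt, and one at least as large as that of the Rsad2-Cmpk2 window in 0.325 and 0.298%. The loci were framed around their genes while the tiles fall anywhere, so these shares place the loci and are no test.

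**Figure D2:**
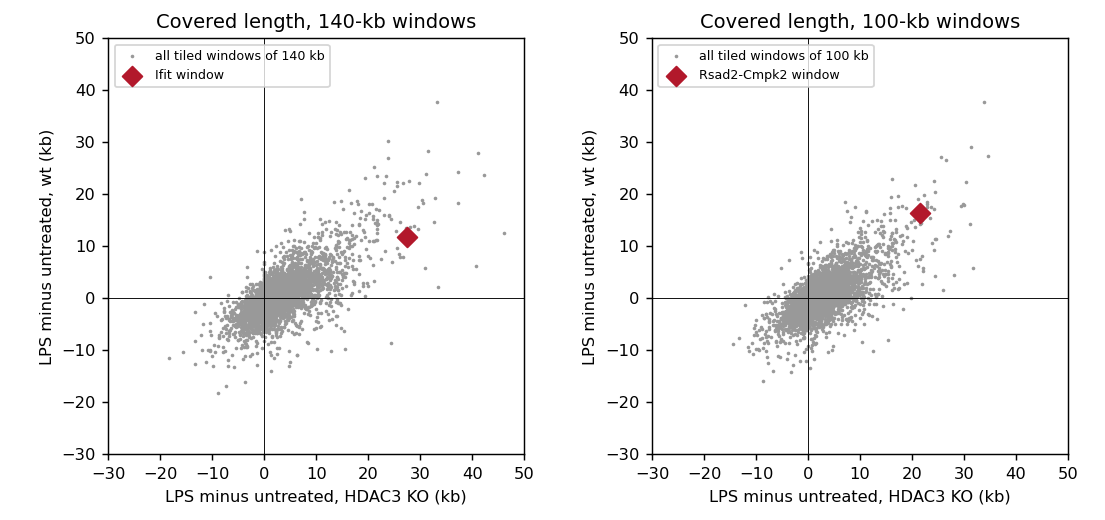
LPS-treated minus untreated covered length (kb) in HDAC3 KO (horizontal axis) and in wt (vertical axis), for all tiled windows of 140 kb (left) and 100 kb (right) in grey and for the Ifit and Rsad2-Cmpk2 windows as diamonds. The diamonds lie in the upper right, at 27.5 and 11.7 kb for the Ifit window and at 21.6 and 16.4 kb for the Rsad2-Cmpk2 window.

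Scores come from the authors' peak caller, on a scale that is not stated, and depend on each library's depth and input. Where scores of several lists stand side by side below, or a common value of 500 is used, they describe each list and do not measure a difference in acetylation between libraries. Many of the highest scores are tied at 3100, a value reached by 0.875% of the LPS-treated HDAC3 KO list, 0.804% of the LPS-treated wt list, 0.0358% of the untreated HDAC3 KO list and 0.0103% of the untreated wt list. In the Ifit window 2 peaks of LPS-treated HDAC3 KO and 2 of LPS-treated wt had that score. In the Rsad2-Cmpk2 window 3 peaks of LPS-treated HDAC3 KO and 1 of LPS-treated wt had it. The highest scores in the untreated lists were 190 (HDAC3 KO) and 270 (wt) in the Ifit window, and 329 (HDAC3 KO) and 580 (wt) in the Rsad2-Cmpk2 window. Peaks scored at least 500 numbered 8 and 4 of those in the Ifit window in LPS-treated HDAC3 KO and LPS-treated wt, and 6 in each of these libraries in the Rsad2-Cmpk2 window. Such peaks made up 18.3 and 18.1% of the 2 whole lists. Of the untreated peaks only 1 reached 500, in wt in the Rsad2-Cmpk2 window. Such peaks made up 9.89% (HDAC3 KO) and 8.31% (wt) of the untreated lists.

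**Figure D3:**
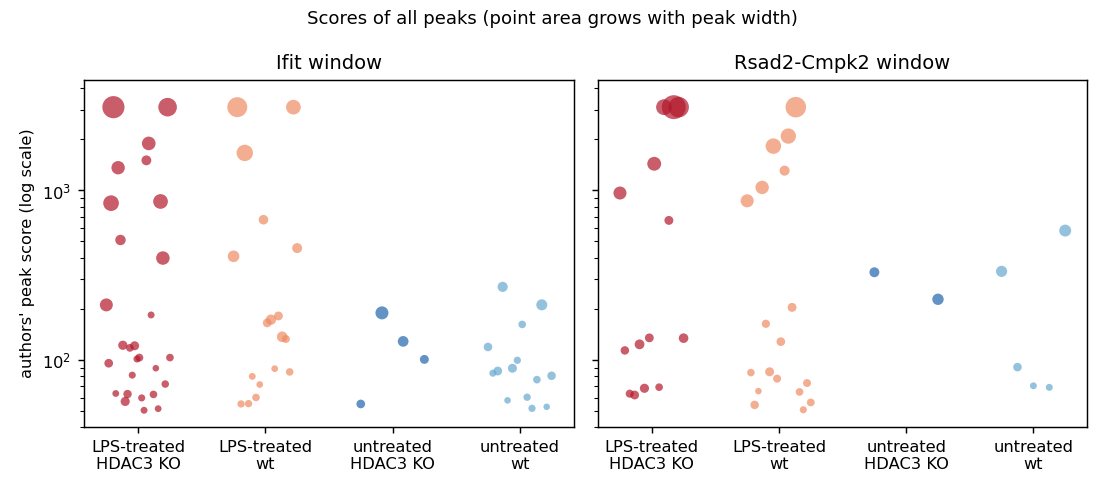
Score of every peak (vertical axis, log scale, the authors' value) in the Ifit window (left) and the Rsad2-Cmpk2 window (right) by library, with the point area growing with peak width. In the LPS-treated libraries the scores run from about the lowest listed value up to 3100, the score of the single widest peak of each in both windows. In the untreated libraries they run up to 580. Scores of different lists are not known to share a scale.

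The widest call of the Ifit window lay toward its low-coordinate end, and its score of 3100 was shared with a call toward the other end. LPS-treated HDAC3 KO had a peak at 34626087 to 34631783, 5697 bp wide with a score of 3100, and LPS-treated wt had one at 34626113 to 34630669, 4557 bp wide with the same score. The right edge of the HDAC3 KO peak thus lay farther out. Only 0.529% of the LPS-treated HDAC3 KO list and 0.554% of the LPS-treated wt list were at least as wide. Untreated HDAC3 KO had no peak there, and untreated wt had one of 949 bp (score 270).

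Directly before it, at 34623359 to 34626048, all 4 libraries had a peak. It was 2690 bp wide in LPS-treated HDAC3 KO (score 841), 1343 bp in LPS-treated wt (409) and 1089 bp in untreated HDAC3 KO (129). Untreated wt had 2 peaks there that covered 939 bp (highest score 86.1). Peaks within 500 bp of each other, joined, formed a stretch of 9.34 kb around this point in LPS-treated HDAC3 KO and of 6.05 kb in LPS-treated wt, the longest of the window in each.

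A second strong region, at 34713189 to 34717117, lay toward the high-coordinate end. It was 1 peak of 3929 bp (score 3100) in LPS-treated HDAC3 KO and 3 peaks covering 3620 bp in LPS-treated wt, the highest also at 3100. Untreated HDAC3 KO had 661 bp there (score 101) and untreated wt 1380 bp in 2 peaks (highest score 211). This and the 34623359 region were the only 2 of the 32 merged regions of the window with a peak in all 4 libraries, a pattern of 28.5% of the 62481 merged regions of the series. Merged regions join overlapping peaks of the 4 lists.

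Between these ends lay a row of separate peaks. The region at 34643300 to 34646324 covered 2898 bp in 2 peaks in LPS-treated HDAC3 KO (highest score 1362) and 2974 bp in LPS-treated wt (score 1665), with no peak in untreated HDAC3 KO and 672 bp in untreated wt (89.3). The region at 34676517 to 34677450 was narrow but high-scored, with 873 bp in LPS-treated HDAC3 KO (score 1505) and 813 bp in LPS-treated wt (672). Untreated HDAC3 KO again had no peak there, and untreated wt had 395 bp (162). At 34707284 to 34709621 the LPS-treated libraries covered 2338 bp (HDAC3 KO, score 861) and 1705 bp (wt, highest score 182), against no peak in untreated HDAC3 KO and 725 bp in untreated wt.

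Together with the 34626087 region these made 4 regions of the Ifit window with a peak in every library except untreated HDAC3 KO, and the Rsad2-Cmpk2 window held 1. That pattern was found in 3.45% of merged regions in the series.

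Regions called with LPS in both genotypes and without LPS in neither numbered 7 of 32 in the Ifit window and 5 of 13 in the Rsad2-Cmpk2 window, against 6.56% of all merged regions. In the Ifit window the widest was 34679776 to 34681738, with 1963 bp and a score of 1894 in LPS-treated HDAC3 KO and 1603 bp in 2 peaks with a highest score of 173 in LPS-treated wt. The next was 34710636 to 34712547, with 1912 bp (score 399) in LPS-treated HDAC3 KO and 441 bp (133) in LPS-treated wt. The other 5 were at most 677 bp wide. The widest of these were 34659235 to 34659911, with 677 bp (score 121) in LPS-treated HDAC3 KO and 384 bp (60.1) in LPS-treated wt, 34656917 to 34657347, with 415 bp (118) and 349 bp (55.3), and 34675671 to 34675966, with 296 bp (59.7) and 231 bp (71.6).

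**Figure D4:**
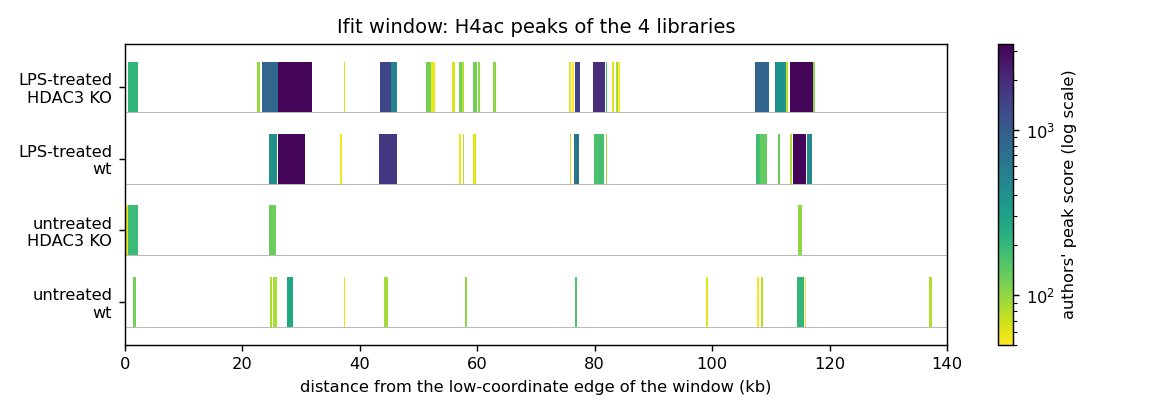
Peaks of the 4 libraries (rows) along the Ifit window, by distance from its low-coordinate edge (kb), coloured by the authors' score on a log scale. Wide dark peaks near 29 and 115 kb appear in both LPS-treated rows, smaller peaks stand between them, and untreated HDAC3 KO has 4 peaks.

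The Rsad2-Cmpk2 window differed in shape. Most of its acetylation calls lay in 1 block, from 27136602 to 27158593, which held 20.3 kb (85.5%) of what LPS-treated HDAC3 KO covered in the window and 17.2 kb (85.0%) of what LPS-treated wt covered. All untreated calls of the window lay inside it. The longest joined stretch of the Ifit window held only 28.6% of the LPS-treated HDAC3 KO calls there. With peaks within 500 bp joined, the block was a single stretch of 22.0 kb in LPS-treated HDAC3 KO, the 18th longest of 30686 such stretches in that library. In LPS-treated wt the same span was broken, and its longest stretch, at 27147641 to 27158475, was 10.8 kb, the 65th longest of 27387. The longest stretch was 1.28 kb in untreated HDAC3 KO and 1.90 kb in untreated wt.

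The centre of the block was the widest peak of either locus. LPS-treated HDAC3 KO had 1 peak of 6698 bp at 27146106 to 27152803 (score 3100), and 0.279% of its list was at least as wide. In the same place LPS-treated wt had 5 peaks covering 5196 bp (highest score 2093). Neither untreated library had a peak there. On its right, at 27152821 to 27157683, all 4 libraries had a call: 4823 bp in LPS-treated HDAC3 KO, 4830 bp in LPS-treated wt, 1277 bp in untreated HDAC3 KO (score 228) and 1712 bp in 2 peaks in untreated wt (highest score 580). Both LPS-treated scores were 3100.

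On the left of the centre, the region at 27142376 to 27145952 covered 3394 bp in LPS-treated HDAC3 KO (highest score 3100) and 3283 bp in LPS-treated wt (1826), with no peak in untreated HDAC3 KO and 839 bp in untreated wt (90.8). The region at 27139273 to 27141947 had a peak in all 4 libraries, covering 2427, 2388, 893 and 1212 bp in LPS-treated HDAC3 KO, LPS-treated wt, untreated HDAC3 KO and untreated wt. The 2 untreated scores there were 329 (HDAC3 KO) and 333 (wt). A separate region, at 27122628 to 27124985, had calls in the LPS-treated libraries only, with 2326 bp in HDAC3 KO (highest score 966) and 1771 bp in wt (869). The centre of the block was also of that kind, and the remaining such regions lay at the ends of the block. At 27136602 to 27138427 LPS-treated HDAC3 KO covered 1560 bp (highest score 124) and LPS-treated wt 559 bp (54.3). At 27138457 to 27139090 they covered 634 bp (HDAC3 KO, score 135) and 204 bp (wt, 65.5), and at 27157750 to 27158593 they covered 809 bp (HDAC3 KO, 134) and 703 bp (wt, highest score 64.8).

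**Figure D5:**
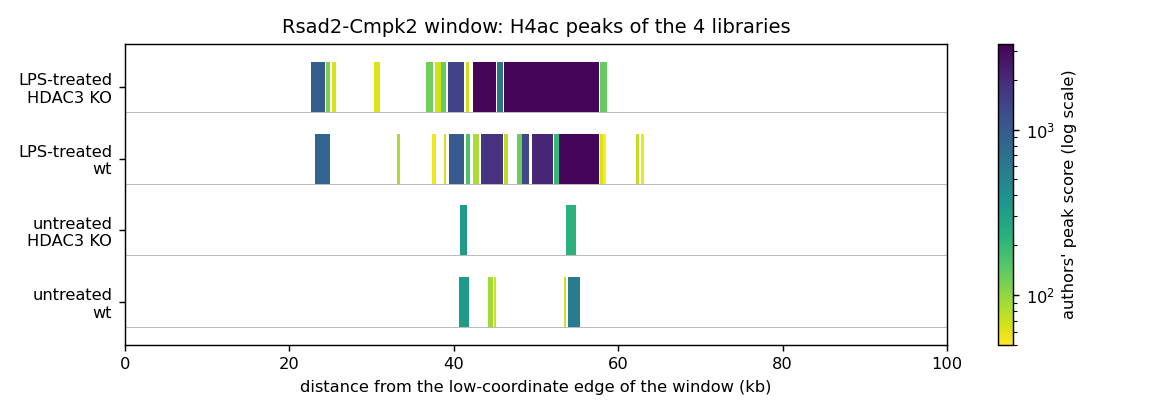
Peaks of the 4 libraries (rows) along the Rsad2-Cmpk2 window, by distance from its low-coordinate edge (kb), coloured by the authors' score on a log scale. A block of peaks between about 37 and 59 kb and a separate peak near 24 kb appear in both LPS-treated rows. The block is nearly continuous in HDAC3 KO and more broken in wt. The untreated rows have 2 (HDAC3 KO) and 5 (wt) peaks.

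Counted by peaks, 25 of the 28 peaks of LPS-treated HDAC3 KO in the Ifit window had no partner (an overlap of at least 1 bp) in untreated HDAC3 KO, and 11 of 14 in the Rsad2-Cmpk2 window, against 39.9% of the whole list. In LPS-treated wt 11 of 18 and 14 of 18 peaks had no partner in untreated wt, against 31.7% of that list. Among peaks scored at least 500, the Ifit window had 6 without a partner in LPS-treated HDAC3 KO and 0 in LPS-treated wt, and the Rsad2-Cmpk2 window 4 and 3. In the whole lists such peaks were 8.88% (HDAC3 KO) and 6.54% (wt) of those scored at least 500.

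Counted by whole merged regions, the LPS-treated calls of the Ifit window lay mostly on regions with no untreated call in HDAC3 KO. In wt they lay mostly on regions that also held an untreated call. By base pairs, untreated calls overlapped 11.0% of the LPS-treated length in HDAC3 KO and 26.9% in wt. These base-pair shares were not computed over the series, so they cannot be placed against a background. In HDAC3 KO, regions with a peak in both libraries held 8.36 kb (LPS-treated) and 3.51 kb (untreated), and those called with LPS alone added 23.1 kb. In wt, regions called in both libraries held 15.0 kb (LPS-treated) and 5.06 kb (untreated), and those called with LPS alone added 3.83 kb. Over the series, regions called in both libraries held 37650.8 kb in LPS-treated HDAC3 KO, and those called with LPS alone 12792.5 kb. In LPS-treated wt these were 30665.8 and 6764.11 kb, so the wt split of the Ifit window was near that of the series. For the Rsad2-Cmpk2 window, regions called in both libraries of a genotype held 7.25 kb in LPS-treated HDAC3 KO and 10.5 kb in LPS-treated wt. Those called with LPS alone added 16.6 kb in HDAC3 KO and 9.69 kb in wt. Regions called in both HDAC3 KO libraries were longer with LPS in 2 of 3 cases in the Ifit window and 2 of 2 in the Rsad2-Cmpk2 window, against 66.2% over the series, so the Ifit share was at the background. Regions called in both wt libraries were longer with LPS in 6 of 6 and 3 of 3 cases, against 57.1% over the series.

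Calls without LPS that were missing with LPS were about as frequent in the Ifit window as in the whole lists. There 1 of 4 peaks of untreated HDAC3 KO had no partner in LPS-treated HDAC3 KO, against 25% of its list, and 5 of 14 of untreated wt had none in LPS-treated wt, against 35.6%. Their highest scores were 55.0 (HDAC3 KO) and 119 (wt). Both untreated HDAC3 KO peaks and all 5 untreated wt peaks of the Rsad2-Cmpk2 window had a partner with LPS.

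Before LPS, HDAC3 KO had less called acetylation than wt at both loci. Covered length was 3.99 kb in untreated HDAC3 KO and 7.11 kb in untreated wt in the Ifit window, a difference of -3.12 kb, and 2.17 and 3.76 kb in the Rsad2-Cmpk2 window, a difference of -1.59 kb. Neither was past 2-fold and 5 kb, a size reached downward by 0.508% of 140-kb and 0.263% of 100-kb windows. In the Rsad2-Cmpk2 window it could not be reached, because untreated wt covered less than 5 kb. A difference at least as low was found in 2.62% of windows for the Ifit locus and in 7.54% for the Rsad2-Cmpk2 locus. Of the untreated HDAC3 KO peaks, 1 of 4 and 0 of 2 had no partner in untreated wt, against 24.6% of the HDAC3 KO list. Of the untreated wt peaks, 10 of 14 and 2 of 5 had none in HDAC3 KO, against 29.3% of the wt list.

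The highest of the wt peaks without a partner scored 270 in the Ifit window and 90.8 in the Rsad2-Cmpk2 window, and the median score of the untreated wt list was 116. Using only peaks at or above the median score of each list, the untreated difference was -0.268 kb in the Ifit window and -0.477 kb in the Rsad2-Cmpk2 window, and with each list limited to its 20000 top-scored peaks it was -0.765 and -0.477 kb. Regions called in both untreated libraries were longer in HDAC3 KO in 2 of 3 cases in the Ifit window and 0 of 2 in the Rsad2-Cmpk2 window. Over the series the share was 57.7%. One of the Ifit window regions longer in HDAC3 KO, at 34600508 to 34602294 beside the window edge, had 1759 bp (score 190) in untreated HDAC3 KO. It had 592 bp (119) in untreated wt. The first 10 kb of the window held 2.24 kb of the untreated HDAC3 KO calls. With the Ifit window narrowed by 20 kb on each side, untreated HDAC3 KO covered 1.75 kb and untreated wt 5.95 kb. That is a difference of -4.20 kb.

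With LPS the order of the genotypes was the opposite. LPS-treated HDAC3 KO covered 12.6 kb more than LPS-treated wt in the Ifit window (31.4 and 18.8 kb, 1.67-fold) and 3.62 kb more in the Rsad2-Cmpk2 window (23.8 and 20.2 kb, 1.18-fold). Neither was past 2-fold and 5 kb, which 4.75% of 140-kb and 4.25% of 100-kb windows were. A difference at least as large was found in 1.55% of windows for the Ifit locus and in 11.2% for the Rsad2-Cmpk2 locus. The LPS-treated HDAC3 KO library covered more genome than any other, and after scaling each library to the same total covered length the differences were 4.79 kb in the Ifit window and -2.69 kb in the Rsad2-Cmpk2 window, where the direction turned.

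Regions with a peak in both LPS-treated libraries covered more in HDAC3 KO in 12 of 13 cases in the Ifit window, with a median ratio to wt of 1.22, and in 7 of 8 cases in the Rsad2-Cmpk2 window, also with a median ratio of 1.22. Over the series HDAC3 KO was longer in 69.7% of such regions, with a median ratio of 1.14. The exceptions were the regions at 34643300 and at 27152821, where wt was longer by less than 100 bp.

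Peaks of LPS-treated HDAC3 KO were set against those of LPS-treated wt in the same way. Of the HDAC3 KO peaks, 14 of 28 in the Ifit window and 2 of 14 in the Rsad2-Cmpk2 window had none, against 35.3% of the list. The highest score among those peaks was 211 and 63.3, so none reached 500, where 2.58% of peaks in the list lacked a partner. In LPS-treated wt 1 of 18 and 3 of 18 peaks had none in LPS-treated HDAC3 KO, against 19.5% of the list.

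Regions called in LPS-treated HDAC3 KO alone numbered 12 of 32 in the Ifit window and 2 of 13 in the Rsad2-Cmpk2 window, against 14.5% of all merged regions. The 12 were 211 to 726 bp wide with scores of 50.5 to 122, all below the median score of their list (145), and summed to 5.21 kb. Of the 12, 5 lay between 34651324 and 34663165 and 3 between 34682926 and 34684285. Regions called in LPS-treated wt alone numbered 1 of 32 in the Ifit window and 3 of 13 in the Rsad2-Cmpk2 window, against 7.58% of all merged regions, so in the Rsad2-Cmpk2 window they outnumbered those of HDAC3 KO alone.

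The widest regions called in 1 library only were all narrow. In the Ifit window they were 34651324 to 34652049 (726 bp, score 122), 34652094 to 34652796 (703 bp, 56.9) and 34622448 to 34623056 (609 bp, 95.7) in LPS-treated HDAC3 KO. The others were 34599869 to 34600478 (610 bp, 55.0) in untreated HDAC3 KO and 34736923 to 34737494 (572 bp, 80.7) in untreated wt. In the Rsad2-Cmpk2 window, LPS-treated HDAC3 KO alone had 27130339 to 27130983 (645 bp, score 62.1) and 27125148 to 27125632 (485 bp, 63.3). LPS-treated wt alone had 27162131 to 27162580 (450 bp, 73.1), 27162730 to 27163156 (427 bp, 56.1) and 27133084 to 27133458 (375 bp, 84.2).

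In base pairs, the stretches covered in both LPS-treated libraries were 58.2% of what LPS-treated HDAC3 KO covered and 97.2% of what LPS-treated wt covered in the Ifit window. In the Rsad2-Cmpk2 window they were 76.7% (HDAC3 KO) and 90.5% (wt). The same shares over the whole lists, which cover 50.4 Mb (HDAC3 KO) and 37.4 Mb (wt), were not computed.

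The LPS difference in covered length was larger in HDAC3 KO than in wt by 15.7 kb in the Ifit window and by 5.21 kb in the Rsad2-Cmpk2 window. Of tiled windows, 0.475% of 140 kb and 5.73% of 100 kb had at least these values. After scaling to the same total covered length, chosen after seeing the data, they were 8.44 and -0.825 kb. The comparisons within genotypes share no library, but each library enters 1 LPS comparison and 1 genotype comparison.

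Just outside the Ifit window, on the low-coordinate side, calls went the other way. Within 20 kb of that edge peaks covered 3.88 kb in LPS-treated HDAC3 KO and 6.78 kb in untreated HDAC3 KO, and 0.633 kb in LPS-treated wt and 6.02 kb in untreated wt. The highest score there was 329 in LPS-treated HDAC3 KO, 421 in untreated HDAC3 KO, 68.3 in LPS-treated wt and 454 in untreated wt, each on its own list's scale. With the window widened by 20 kb on each side the LPS difference in wt was therefore 5.82 kb. On the high-coordinate side the nearest peak beyond the window was 8.35 kb away in untreated wt (score 111) and at least 57.1 kb away in the other libraries.

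One member straddled an edge, the untreated HDAC3 KO peak at 34599869 to 34600478 (score 55.0). The nearest peak outside that edge in LPS-treated HDAC3 KO ended 0.235 kb before it (score 51.2). For the Rsad2-Cmpk2 window the closest outside peak was one of untreated HDAC3 KO, 0.026 kb before the edge (score 56.2), and the nearest peak after the window was 2120 kb away in each library.

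The Ifit genes have near-copies next to them (Ifit3 and Ifit3b, and Ifit1bl1 and Ifit1bl2), and how reads that map to more than 1 place were treated is not given in the sources used here, so calls over these genes are given as uncertain.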

How the data were processed

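Per the file headers, MACS was used to call peaks of each ChIP library relative to an input. Bowtie and the mm9 build are named in the submitters' processing notes. Versions, settings and the input used are not given in the sources used here. Each deposited list, 1 for each of the 4 libraries, gives the start and end of every peak and a score, the authors' own value.

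Peaks overlapping each window by at least 1 bp were taken, and lengths were summed inside the window. Across the lists, peaks that overlapped or touched were joined into merged regions. Windows of 140 and 100 kb, tiled from the start of each chromosome, gave the background. Regions named by rule were the 4 widest of each window and up to 5, widest first, called in both LPS-treated libraries only or in 1 library only. Other named regions, such as those missing in untreated HDAC3 KO alone, were chosen after their values were seen. The members, windows, lists and settings were chosen with earlier results of these data known. Depth per library is unknown, and with 1 library per group no test was run. The planned counts of promoter peaks and macrophage markers need an mm9 annotation and were not run, and the Hdac3 locus was not used to check the labels. Alternatives were score filters, joining, scaling, overlap rules and window edges. The counting steps were tested on simulated lists, where 70 of 70 values were exact. The calculations used pandas 2.3.3 and numpy 2.4.6 under Python 3.11.15, with figures from matplotlib 3.10.9. Peak coordinates are mm9, counted from 1.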

Additional observations from a re-analysis of the deposited data

Results flagged for a closer look

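The genotype difference in covered length had opposite signs in LPS-treated and untreated libraries at both loci, which is why it is listed here. HDAC3 KO minus wt was 12.6 kb with LPS and -3.12 kb without LPS in the Ifit window, and 3.62 and -1.59 kb in the Rsad2-Cmpk2 window. With 1 library per group this difference was not tested. The same pair of signs was found in 28.7% of 140-kb and 26.8% of 100-kb windows with a peak. Total covered length was also greatest in LPS-treated HDAC3 KO (50.4 Mb, against 37.4 Mb in LPS-treated wt), and its part in the result was not tested beyond the scaling given in the next section.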

How the results depend on the processing

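Each of 16 values was recomputed under several other settings, 72 times in all, and 55 of these recomputed values kept the sign and stayed within 1.5 times the value given in the report, among them 23 of 24 for the LPS differences in covered length. The exception was wt in the Ifit window, at 5.82 kb with the window widened by 20 kb. For untreated HDAC3 KO minus wt, peaks at or above the median score gave -0.268 kb in the Ifit and -0.477 kb in the Rsad2-Cmpk2 window, and the 20000 highest-scored peaks gave -0.765 and -0.477 kb. For LPS-treated HDAC3 KO minus wt, scaling to total covered length gave 4.79 kb in the Ifit window and turned the sign in the Rsad2-Cmpk2 window, to -2.69 kb. The same scaling, added after seeing the data, put the larger LPS difference in HDAC3 KO at 8.44 and -0.825 kb.

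Counts of peaks without a partner changed most under the score filter, where fewer peaks enter, so they are given with the number of peaks kept. With peaks at or above the median score, the Ifit window had 9 of 11 in LPS-treated against untreated HDAC3 KO and 6 of 9 in LPS-treated against untreated wt. It had 3 of 11 in LPS-treated HDAC3 KO against LPS-treated wt. The Rsad2-Cmpk2 window had 4 of 6, 5 of 8 and 0 of 6 in that order. With at least 50% of the peak overlapped, untreated HDAC3 KO against wt gave 2 in the Ifit window, and LPS-treated HDAC3 KO against wt gave 5 in the Rsad2-Cmpk2 window. With a peak within 500 bp counted, LPS-treated HDAC3 KO against wt gave 9 and 1. Whole-list shares under the score filter and these overlap rules were not computed, so these counts cannot be placed against a background. No paired analysis was possible because each group had 1 library. Unknown depth limits every value.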
